A study of Mus musculus with 6 samples.

Results

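The genes described here are 9 genes by which basal keratinocytes build and anchor their keratin skeleton. They were chosen by gene symbol, each matched 1 row, and they are 9 of 54532 genes in the count table. The data hold 6 Smart-seq2 libraries (full-length cDNA from little RNA) from the epidermis of 4 week old C57BL/6 mice of both sexes (back skin), each made from 500 sorted DAPI-negative events. The 3 libraries of the NCAM-enriched group hold cells captured on beads and sorted for polysialylated NCAM, a surface marker of Merkel cells, the touch-sensing neuroendocrine cells of the basal layer. The bulk skin group has 3 libraries of epidermal cells sorted without that marker, and such cells can include Merkel cells. The labels and methods name no treatment and no genetic change of these mice. No source used here states whether replicates are separate animals, so the p-values measure only the spread between these libraries.

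Krt5 and Krt14 encode the type II and type I keratins that pair into the filaments of the basal epidermal layer, and Krt15 is a further type I keratin of basal cells and of the hair follicle bulge. Hemidesmosomes tie these filaments to the basement membrane. The integrin of Itga6 and Itgb4 spans the membrane, the plakins of Dst (BP230) and Plec (plectin) link it to keratin inside the cell, and laminin-332, which holds the chains of Lama3 and Lamb3, binds it from outside. Basal cells that move upwards lose these adhesions and switch to Krt1 and Krt10.

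Promoter windows from RefSeq (GRCm38.p6) were found for 4 of the 9 genes, and the window of Krt14 lay at the start of a processed transcript inside the gene. Windows of Krt5 and Lamb3 are shown. These genes had their highest level in the same NCAM-enriched library, as did Krt14, Krt15, Itgb4 and Plec. Each window is the 250 bases before a RefSeq start, read 5′ to 3′ on the gene's strand, with motif matches in capitals. The first is at chr15:101712906-101713155 (minus strand) and the second, 1 of the 2 windows given for Lamb3, at chr1:193301744-193301993 (plus strand), which also lies inside the annotated gene, just before the start of a shorter protein-coding transcript.
Krt5: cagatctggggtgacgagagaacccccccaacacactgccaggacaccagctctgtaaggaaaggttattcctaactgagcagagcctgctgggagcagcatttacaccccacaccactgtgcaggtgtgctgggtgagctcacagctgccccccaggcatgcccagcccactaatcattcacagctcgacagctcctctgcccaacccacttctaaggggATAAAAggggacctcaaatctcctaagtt
Lamb3: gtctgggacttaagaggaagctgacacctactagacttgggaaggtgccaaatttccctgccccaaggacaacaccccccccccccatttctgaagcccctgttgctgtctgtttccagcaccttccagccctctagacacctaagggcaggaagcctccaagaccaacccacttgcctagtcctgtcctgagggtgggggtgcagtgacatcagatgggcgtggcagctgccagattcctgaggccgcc

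Both strands of the windows were searched for 6 short words. The TATA box, spelled TATAAA, occurred in 12.4% of all 32851 windows of that length. The AP-1 word TGANTCA occurred in 6.75%, the AP-2 word GCCNNNGGC in 13.7%, the GC box GGGCGG in 32.7% and the word CCAAT in 33.8%. The last word, ATAAAA, shares 5 letters with the TATA box, was added after the windows had been seen, and occurred in 17%. It was found once in the Krt5 window, starting 29 bases before the start. No other match lay in the Krt5 window, and none of the 6 words lay in the Lamb3 window.

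The libraries held 1343190 to 4481830 counts, and 1 count was worth 0.216 to 0.773 CPM (counts per 1e+06 of the library size after TMM adjustment). Since amplified reads carried no molecular identifiers, an interval on a count covers counting error only. All 8 Merkel cell markers were detected, and 5 of them rose in the NCAM-enriched group by edgeR (8 by DESeq2, 3 by limma-voom and 8 without NCAM-enriched library 3). Leaving out any 1 bulk skin library left 0, 0 and 1 higher calls over all genes. NCAM-enriched library 3 stood apart, with a summed Merkel marker level of 426 CPM against 1460.2 and 1561 in libraries 1 and 2 and 127 to 170 in bulk skin.

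None of the 9 genes was called between NCAM-enriched and bulk skin cells by edgeR's quasi-likelihood test (adjusted p at most 0.05 over 13157 genes, a call made for 2.59% of all genes, higher for 1.04% and lower for 1.55%). All 9 were tested, and 0 had an unadjusted edgeR p under 0.05, against 2493 of all 13157 genes. DESeq2 and limma-voom also called 0, against 12.2% and 9.12% of all genes. In the fit 5 of the 9 lay above 0 and 4 below, with a median log2 fold change of 0.09, against -0.07 over all genes tested. Without NCAM-enriched library 3, 7 of the 9 lay below 0, with a median of -0.80. Krt5, Krt14 and Krt15 then turned below 0, while the other 6 genes kept their direction. Leaving out NCAM-enriched library 1 instead gave a median of 0.32, and leaving out library 2 gave 0.25. For none of the 9 were the 2 groups free of overlap, which was the case for 30.4% of all genes. The intervals were wide. They allowed a change of up to 3.47-fold upward for Krt14 and down to 0.263-fold for Lama3, so changes of that size in these genes were not excluded.

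Krt5 (ENSMUSG00000061527, chromosome 15, 101707070 to 101712898, minus strand, GRCm38) had 2201, 2439 and 9004 CPM in libraries 1 to 3 of the NCAM-enriched group, against 4103, 3962 and 3571 in bulk skin. Libraries 1 and 2 lay below all bulk skin libraries and library 3 above them. The means were 4548 ± 3861 (SD, n = 3) against 3879 ± 276 CPM, which fitted to a log2 fold change of 0.23 ± 0.64 (SE, 95% interval -1.21 to 1.67, edgeR adjusted p = 0.894).

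Krt14 (ENSMUSG00000045545, chromosome 11, 100203162 to 100207548, minus strand) had 2215, 1712 and 7950.1 CPM in the NCAM-enriched libraries, against 3905, 3099 and 2530.0 in bulk skin. Like its partner Krt5, it had libraries 1 and 2 below all bulk skin libraries and library 3 above them. Its log2 fold change was 0.32 ± 0.65 (SE, interval -1.16 to 1.80, edgeR adjusted p = 0.853).

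Krt15 (ENSMUSG00000054146, chromosome 11, 100131758 to 100135928, minus strand) had 4574, 1902 and 10922 CPM in the NCAM-enriched libraries, against 6739, 5620.5 and 3965 in bulk skin. Here library 1 fell within the bulk skin range, library 2 below it and library 3 above it. The log2 fold change was 0.09 ± 0.68 (SE, interval -1.45 to 1.63, edgeR adjusted p = 0.963).

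**Figure D1:**
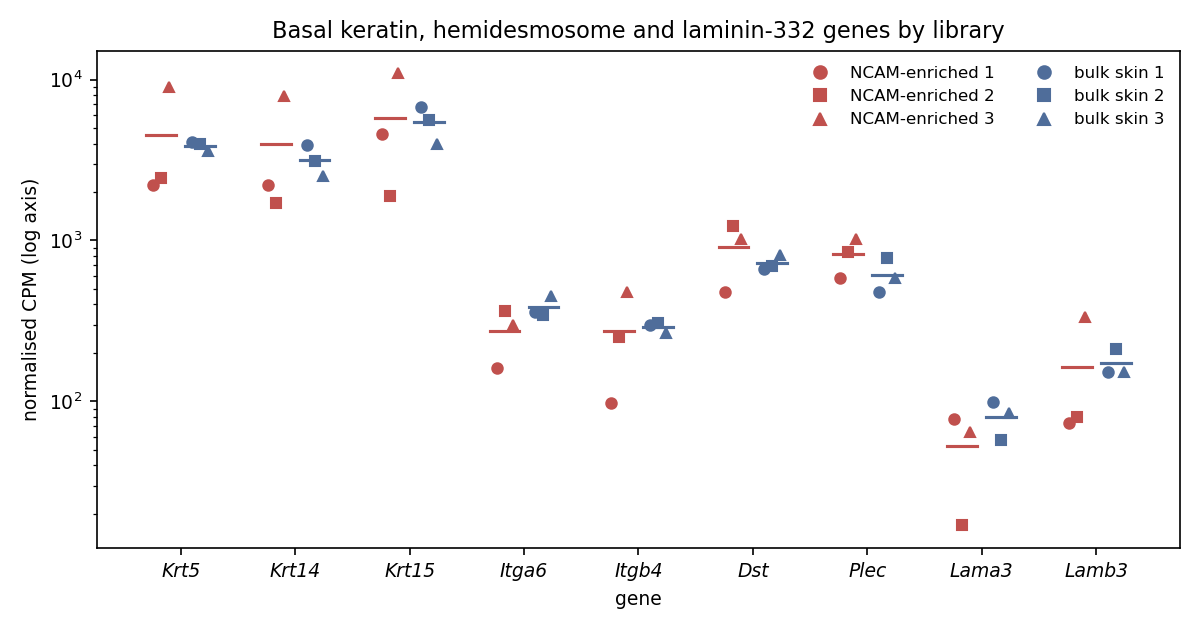
Level of the 9 genes in each library, as CPM on a log axis, with NCAM-enriched libraries in red, bulk skin in blue, a marker shape for each replicate and a bar at the mean of 3 libraries. NCAM-enriched library 3 (red triangle) is the highest of all 6 for Krt5, Krt14, Krt15, Itgb4, Plec and Lamb3, and for none of the 9 genes do the groups separate.

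Library 3 held 3.88 times the mean of NCAM-enriched libraries 1 and 2 for Krt5, 4.05 times for Krt14 and 3.37 times for Krt15. The 3 basal keratins together took 0.848, 0.583 and 2.59% of the counts of the NCAM-enriched libraries and 1.42, 1.31 and 1.06% in bulk skin. No difference between the groups was shown for these shares (difference 0.0752 percentage points, exact two-sided permutation p = 1, where 3 against 3 cannot go below 0.1). Without NCAM-enriched library 3 the difference was -0.548 points (exact permutation p = 0.2).

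The keratin partners kept close to 1 ratio. Per kilobase of exon, Krt5 stood to Krt14 at 0.795, 1.14 and 0.906 in the NCAM-enriched libraries and 0.841, 1.02 and 1.13 in bulk skin, so the ratio spanned 0.52 log2 units among the NCAM-enriched libraries, while the level spanned 4.09-fold for Krt5 and 4.64-fold for Krt14. The ratio of Krt15 to Krt14 was 2.05, 1.11 and 1.37 in the NCAM-enriched libraries, against 1.72, 1.8 and 1.56 in bulk skin, a wider range in the selected cells. Per kilobase Krt15 was the highest of the 9 genes in bulk skin, at 3079.5 ± 790 CPM per kb (SD, n = 3), above Krt14 at 1808 ± 393 and Krt5 at 1765 ± 126, and the last 2 differed by less than their spread. In NCAM-enriched library 2 the order was Krt5, Krt15, Krt14, at 1110.2, 1077 and 974 CPM per kb.

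Reads of near-identical keratins may be split or lost, since the handling of reads with several matches is not given in the sources used here. Of the 50-base words in Krt14 transcripts, 13.9% also occurred in another gene's transcripts, namely Krt16 and Krt17. For Krt5 the share was 12.2%, chiefly with Krt6a, Gm5478 and the overlapping antisense gene Gm44323, and for Krt15 it was 0.64%. Krt6a averaged 12.5 CPM and Krt16 4.21 CPM in the NCAM-enriched group, against 9851 ± 6921 CPM for Krt17.

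Itga6 (ENSMUSG00000027111, chromosome 2, 71745616 to 71858416, plus strand), the alpha chain of the hemidesmosome integrin, had 162, 362 and 299 CPM in the NCAM-enriched libraries, against 357, 345 and 454 in bulk skin. Libraries 1 and 3 lay below bulk skin, and library 3 did not stand out. It had a fitted log2 fold change of -0.49 ± 0.39 (SE, interval -1.39 to 0.40, edgeR adjusted p = 0.57). Its means were 274 ± 102 against 385 ± 59.7 CPM (SD, n = 3).

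Itgb4 (ENSMUSG00000020758, chromosome 11, 115974709 to 116008412, plus strand), the beta chain, had 98.3, 250 and 476 CPM in the NCAM-enriched libraries, against 299, 305 and 265 in bulk skin. The NCAM-enriched libraries spanned 4.84-fold, from below to above bulk skin, against 1.15-fold within bulk skin. The log2 fold change was -0.07 ± 0.53 (SE, interval -1.27 to 1.12, edgeR adjusted p = 0.962). Of its exonic bases 7.66% are shared with B230344G16Rik on the other strand, and Smart-seq2 does not mark the strand.

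The integrin chains did not move as a fixed pair. Per kilobase, Itga6 stood to Itgb4 at 1.28, 1.12 and 0.488 in the NCAM-enriched libraries, against 0.93, 0.878 and 1.33 in bulk skin, so the chains were close to equal except in NCAM-enriched library 3. That library had 0.776 times the bulk skin mean of Itga6 and 1.64 times that of Itgb4. The mean log2 ratios of the groups differed by -0.21 (exact permutation p = 0.8, 0.8 adjusted over 7 pairs), and by 0.22 without NCAM-enriched library 3.

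Dst (ENSMUSG00000026131, chromosome 1, 33908225 to 34308661, plus strand) had 476, 1223 and 1015 CPM in the NCAM-enriched libraries, against 663, 695 and 812 in bulk skin. Library 1 was the lowest of all 6 and libraries 2 and 3 the highest. It had a fitted log2 fold change of 0.32 ± 0.43 (SE, interval -0.66 to 1.31, edgeR adjusted p = 0.758). The counts pool all transcripts of the gene, which also has neuronal and muscle forms, so the epithelial form was not measured on its own.

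Plec (ENSMUSG00000022565, chromosome 15, 76170974 to 76232574, minus strand) had 586, 849 and 1021 CPM in the NCAM-enriched libraries, against 479, 773 and 584 in bulk skin. It was the least variable of the 9 genes among the NCAM-enriched libraries, at 1.74-fold from lowest to highest. The log2 fold change of 0.42 ± 0.39 (SE, interval -0.47 to 1.31, edgeR adjusted p = 0.629) was the largest upward one of the 9 and did not pass the test. Plec is made in most tissues, so its RNA does not mark basal cells alone.

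Per kilobase, Dst stood to Plec at 0.358, 0.634 and 0.438 in the NCAM-enriched libraries, against 0.608, 0.396 and 0.612 in bulk skin. On this scale, which divides Dst by the joined exons of all its forms, Plec was higher in all 6 libraries, whereas by CPM Dst was higher in all libraries but NCAM-enriched 1 and 3 and bulk skin 2. The mean log2 ratios differed by -0.19 between the groups (exact permutation p = 0.7, 0.8 adjusted over the 7 pairs).

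Lama3 (ENSMUSG00000024421, chromosome 18, 12333819 to 12583013, plus strand), the alpha chain of laminin-332, had 78.1, 17 and 64.4 CPM in the NCAM-enriched libraries, against 99, 57.9 and 84.7 in bulk skin. Library 2 was the lowest of all 6, with 22 counts, and its 17 CPM had an exact Poisson interval of 10.7 to 25.7, below every other library. The log2 fold change was -0.59 ± 0.59 (SE, interval -1.93 to 0.74, edgeR adjusted p = 0.65).

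Lamb3 (ENSMUSG00000026639, chromosome 1, 193207699 to 193343878, plus strand), the beta chain, had 73.9, 79.6 and 336 CPM in the NCAM-enriched libraries, against 152, 211 and 153 in bulk skin. As with Krt5 and Krt14, libraries 1 and 2 lay below all bulk skin libraries and library 3 above them. It had a fitted log2 fold change of -0.07 ± 0.60 (SE, interval -1.42 to 1.29, edgeR adjusted p = 0.969).

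Lamb3 followed Krt14 more closely than it followed its partner chain. The log2 ratio of Lamb3 to Krt14 per kilobase spanned 0.48 in the NCAM-enriched libraries, against 0.81 in bulk skin, whereas that of Lamb3 to Lama3 spanned 2.46 and 1.25. Per kilobase Lamb3 stood to Lama3 at 1.54, 7.61 and 8.48 in the NCAM-enriched libraries, against 2.49, 5.91 and 2.94 in bulk skin. The log2 ratio of Itga6 to Krt14 spanned 2.49 in the NCAM-enriched libraries, against 0.97 in bulk skin. For none of the 7 pairs was a group difference shown (exact two-sided permutation p from 0.3 to 0.8, all 0.8 when adjusted over the 7 pairs).

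**Figure D2:**
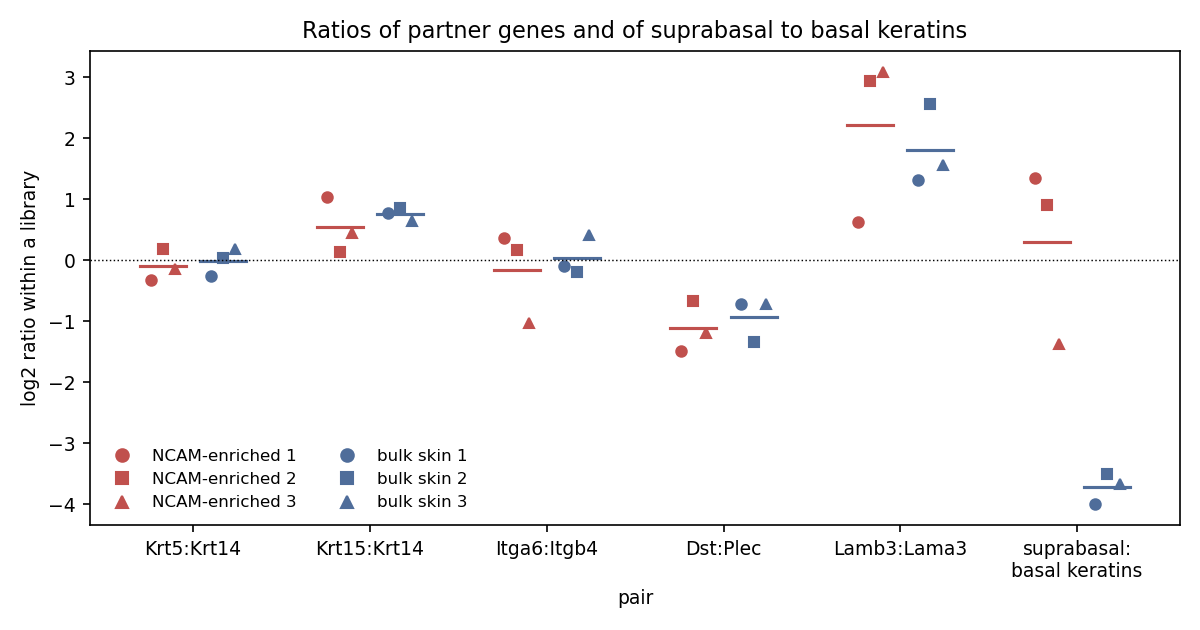
Log2 ratio of partner genes within each library (per kilobase of exon) and of the summed counts of 3 suprabasal keratins to those of 3 basal keratins, with bars at the mean of 3 libraries. Krt5:Krt14 lies between -0.33 and 0.19 in all 6 libraries, Lamb3:Lama3 spreads from 0.62 to 3.08, and only the ratio of suprabasal to basal keratins separates the groups.

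The libraries of the NCAM-enriched group differed more among themselves than those of bulk skin for all 9 genes. The median SD of log2 CPM was 1.14 against 0.27. This is no property of these genes alone, since the medians over all genes tested were 1.06 and 0.46 and 80.4% of all genes had the larger SD in the NCAM-enriched group. Library 3 was the highest NCAM-enriched library for 6 of the 9 genes, library 2 for Itga6 and Dst and library 1 for Lama3. Over all genes tested, library 3 was the highest of the group for 34.5%.

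Without NCAM-enriched library 3, 7 of the 9 genes lay below 0, with Dst and Plec above it. The median log2 fold change of the 9 was -0.80 (-0.10 over all genes). Leaving out library 3 was bound to lower the 6 genes for which it was the highest NCAM-enriched library. Krt5 was then at -0.81 ± 0.43 (SE, edgeR adjusted p = 0.257), Krt14 at -0.76 ± 0.45 (adjusted p = 0.313) and Krt15 at -0.80 ± 0.58 (adjusted p = 0.402). Lamb3 was at -1.23 ± 0.39, with an unadjusted edgeR p of 0.0139 and an adjusted p of 0.0768. An unadjusted p under 0.05 was found for 4425 of the 14962 genes in that fit. None of the 9 was called, while 12.2% of all genes tested in that fit were.

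**Figure D3:**
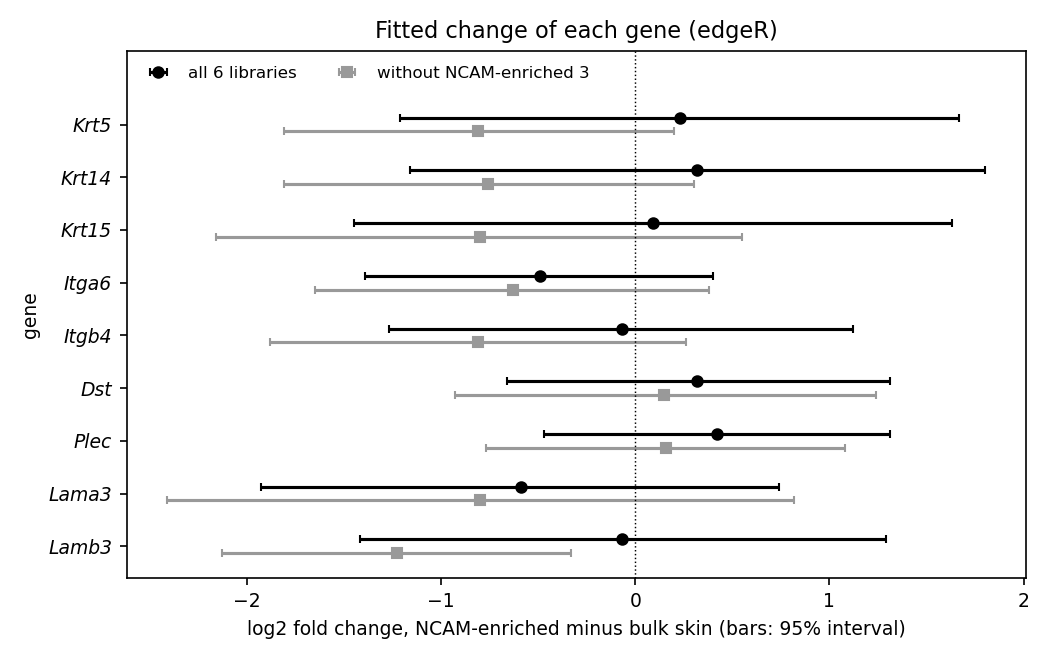
Fitted log2 fold change of the 9 genes (NCAM-enriched minus bulk skin) with its 95% interval, from all 6 libraries (black) and without NCAM-enriched library 3 (grey). All 9 black intervals cross 0, and the grey points of Krt5, Krt14, Krt15, Itgb4, Lama3 and Lamb3 lie between -0.76 and -1.23. Of the grey intervals only that of Lamb3 (-2.13 to -0.33) does not cross 0, and Lamb3 was not called there (edgeR adjusted p = 0.0768).

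Of 9 tested suprabasal markers 7 rose and all lay above 0, with a median log2 fold change of 3.97. Krt77, a suprabasal keratin, rose by a log2 fold change of 4.61 ± 0.56 (SE, edgeR adjusted p = 0.00884), Krt10 by 3.97 ± 0.62 (adjusted p = 0.019) and Calm4, a calmodulin-like protein of differentiating keratinocytes, by 3.57 ± 0.50 (adjusted p = 0.014). Krt1, the partner of Krt10, was not called (log2 fold change 2.42 ± 0.76 SE, edgeR adjusted p = 0.121, groups overlapping). The calls of Krt77, Krt10 and Calm4 were lost on leaving out any 1 bulk skin library (adjusted p of up to 0.182), with log2 fold changes of 4.49 to 4.62, 3.77 to 4.03 and 3.45 to 3.62.

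The summed counts of Krt1, Krt10 and Krt77 stood to those of Krt5, Krt14 and Krt15 at 2.55, 1.88 and 0.384 in the NCAM-enriched libraries, against 0.0631, 0.0884 and 0.0793 in bulk skin. The mean log2 ratio was 4.01 higher in the NCAM-enriched group, without overlap (exact permutation p = 0.1, two-sided, the lowest this design allows). Libraries 1 and 2 thus held more suprabasal than basal keratin counts, and library 3 and all bulk skin libraries held less.

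Krt17, a keratin of hair follicles and of stressed epidermis, had 6877, 4914 and 17761 CPM in the NCAM-enriched libraries, against 1106, 980 and 1232 in bulk skin. It shared the high library 3 of the basal keratins but lay above bulk skin in all 3 libraries (log2 fold change 3.15 ± 0.65 SE, edgeR adjusted p = 0.0437). That call was lost under 6 of 15 alternatives, among them any fit without 1 bulk skin library and the fit without NCAM-enriched library 1 (adjusted p from 2.53e-08 to 0.282), while its log2 fold change was 2.93 to 3.36 in those 6. Of the 4 tested hair follicle and stress keratins edgeR called Krt17 alone, and DESeq2 and limma-voom called 2 each. Krt79, a keratin of hair follicle openings, also lay above bulk skin in all 3 libraries (log2 fold change 3.24 ± 0.81 SE, edgeR adjusted p = 0.0691). EdgeR called none of 6 hair follicle bulge markers, DESeq2 and limma-voom called 1 each, lower, and their summed level, at 0.407 to 1.14 times the bulk skin mean, overlapped that of the bulk skin libraries (0.853 to 1.23 times). Cd34, a surface marker of bulge stem cells, had 1.06, 65.7 and 22.1 CPM against 242, 231 and 236 (log2 fold change -3.02 ± 0.97 SE, edgeR adjusted p = 0.13). Sox9, the most abundant of the list, had a log2 fold change of 0.45 ± 0.54 (SE, edgeR adjusted p = 0.726).

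None of 14 tested basement membrane partners was called by edgeR, with 6 above 0 and 8 below and a median log2 fold change of -0.32. Col17a1, the transmembrane collagen of hemidesmosomes, was the most abundant of them and had 397, 464 and 2141 CPM in the NCAM-enriched libraries, against 879, 906 and 1069 in bulk skin, the pattern of Krt5, Krt14 and Lamb3. Its log2 fold change was 0.07 ± 0.65 (SE, edgeR adjusted p = 0.969), or -1.21 without NCAM-enriched library 3 (adjusted p = 0.0711).

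Lamc1, a laminin chain named here after its values were seen, had a log2 fold change of -1.53 ± 0.40 (SE, edgeR adjusted p = 0.0772). It was called lower by DESeq2 (adjusted p = 0.0126) and without NCAM-enriched library 3 (0.0393), and its adjusted p ran from 0.0126 to 0.285 over 15 alternatives. It was the 1 gene of the list that DESeq2 called, where 7.1% of all genes were called lower. Nid1, a basement membrane linker chosen in the same way, had 1.59, 121 and 0 CPM against 347, 542 and 331 (log2 fold change -3.36 ± 1.59 SE, edgeR adjusted p = 0.301). It was called under 3 of 15 alternatives, with limma-voom among them (adjusted p = 0.0144), and its adjusted p ran from 5.76e-09 to 0.445.

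None of 11 regulators and markers of basal keratinocytes was called by edgeR, with 6 above 0 and 5 below. Trp63, the transcription factor that maintains the basal layer, had 250, 451 and 302 CPM in the NCAM-enriched libraries, against 270, 264 and 488 in bulk skin, which fitted to -0.03 ± 0.41 on the log2 scale (SE, edgeR adjusted p = 0.982). Trim29, the most abundant of the list, had 1850, 556 and 1704 against 647, 595 and 582 CPM (log2 fold change 1.17 ± 0.50 SE, adjusted p = 0.246). It was called higher without NCAM-enriched library 2 (adjusted p = 0.0271). Cav1, the caveolae protein, lay lower in all 3 NCAM-enriched libraries, at 105, 160 and 164 against 443, 321 and 540 CPM, with a log2 fold change of -1.60 ± 0.38 (SE, edgeR adjusted p = 0.0614) and calls under 5 of 15 alternatives. Bnc1, a zinc finger protein of basal keratinocytes, had 0, 0 and 1.7 CPM against 8.69, 12.1 and 16.7 (edgeR adjusted p = 0.174), and was called lower by DESeq2 (0.043), by limma-voom (0.0329) and without NCAM-enriched library 3 (0.0433). Tfap2a, an AP-2 factor, had 103, 199 and 59.3 CPM against 35.1, 42.8 and 48.8 (edgeR adjusted p = 0.153) and was called higher without NCAM-enriched library 3 (0.0455). Trp63, Cav1, Bnc1 and Tfap2a, like Krt1, Krt79 and Cd34 above, were picked after their values were seen.

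**Figure D4:**
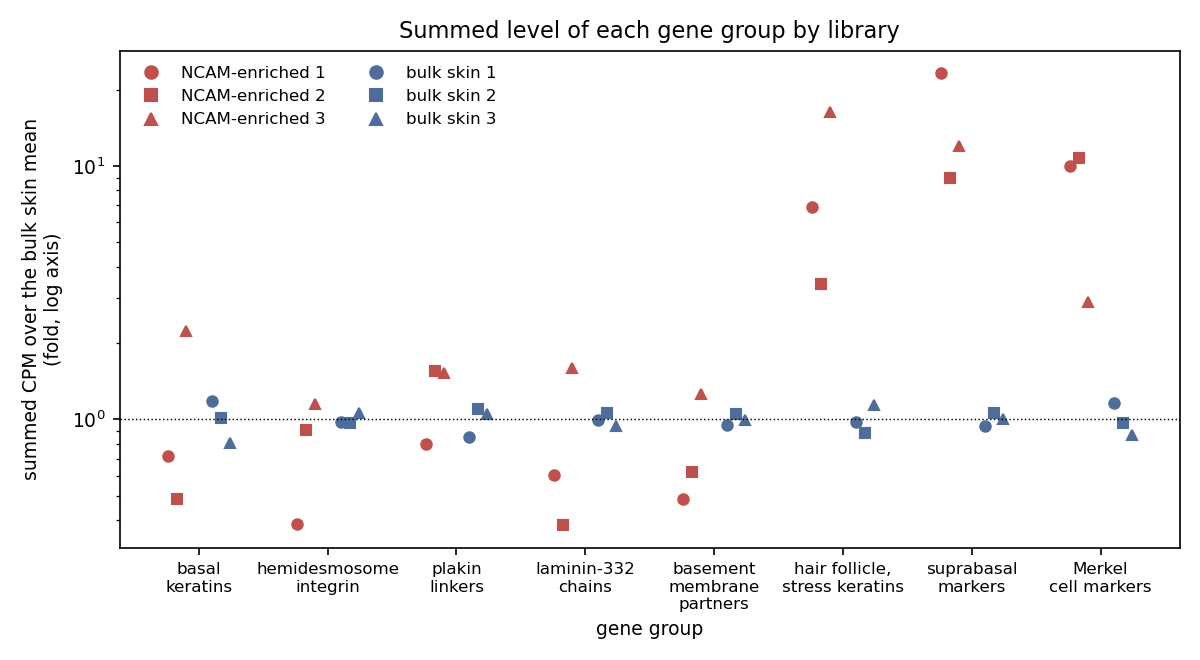
Summed CPM of each gene group in each library, as a fold over its bulk skin mean on a log axis (1 is the bulk skin mean). The basal keratins of the NCAM-enriched libraries lie at 0.719, 0.484 and 2.23 times bulk skin and the laminin-332 chains at 0.602, 0.383 and 1.59, while suprabasal and Merkel cell markers lie above bulk skin in all 3.

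Markers of other cells differed between the same libraries. The summed Merkel marker level was lowest in the NCAM-enriched library where the basal keratins were highest, at 2.91 times bulk skin against 9.99 and 10.7 times in the others. Suprabasal markers summed to 36393, 14073 and 18797 CPM in the NCAM-enriched libraries and to 1471 to 1655 in bulk skin. All 5 T cell and all 4 Langerhans cell markers fell, from sums of 2722 to 2951 and 9377 to 16286 CPM in bulk skin to 1.06 to 13.1 and 23.2 to 301. Fibroblast markers, of which edgeR called none of 6 and limma-voom 3 lower, summed to 363, 33003 and 41.7 CPM in the NCAM-enriched group and 10356 to 18198 in bulk skin. The high sum of library 2 was made by collagen genes (Col1a1 11884, Col1a2 15390.0 and Col3a1 4839 CPM). Its Dcn and Lum, at 774 and 44.8 CPM, lay below every bulk skin library, while its Pdgfra, at 71.1 CPM, lay above them all (30.7 to 41 CPM). Skeletal muscle markers summed to 265, 163 and 7.66 CPM against 0 to 3.89, and nearly all of it was Acta1 (264, 160 and 6.24 CPM), the 1 gene of 5 that could be tested, called higher by edgeR and DESeq2 but not by limma-voom. The others were at most 3.09 CPM in the NCAM-enriched group, with Ckm at 0 in its 3 libraries. Melanocyte markers, none of them tested, summed to 2.66, 68.8 and 1.7 against 0.432 to 3.56 CPM. Most of the sum of library 2 was Dct (64.1 CPM), with Tyr at 4.64 and Pmel and Mlana at 0. Endothelial markers summed to 10.8 to 35.1 against 38.2 to 42.6 and Schwann cell markers to 12.4 to 82.9 against 38.9 to 80.3. EdgeR called none of the last 2 lists, while DESeq2 and limma-voom called 1 endothelial marker lower each. The part of these cells in the levels of the 9 genes was not tested. Each library pools many cells, so fewer basal cells and less RNA per basal cell cannot be told apart.

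Over the 6 libraries, the genes whose log2 CPM was most like the mean of the 3 basal keratins were Lactb, Rnf10, Stk19, Eftud2 and Bcl2l13, with a Pearson r of 0.987 to 0.993. For the 6 hemidesmosome and laminin genes they were Extl1, Rabepk, Nudt9, Cers6 and Cd151, with an r of 0.978 to 0.995. Cd151, a tetraspanin that associates with the integrin in hemidesmosomes, had 69.1, 102 and 239 CPM in the NCAM-enriched libraries, against 188, 165 and 183 in bulk skin. These are descriptions over 6 libraries, ranked among 9585 genes with at least 20 CPM, and the points share library and depth. The r values are the highest picked from that ranking and were not tested. Cd151 is set apart here for its known role alone.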

How the data were processed

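Smart-seq2 counts were taken for 3 NCAM-enriched and 3 bulk skin libraries. The authors deposited unnormalized read counts for each gene. By the methods and labels, adapters and polyA were clipped (bbduk), abundant sequences removed (bbmap), and reads aligned to GRCm38 (STAR) and counted (featureCounts). Which annotation release and strand option were used is not given in the sources used here. Positions, exonic lengths and 50-base words came from GENCODE M21 (54495 of 54532 IDs found).

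Groups, taken from the labels, were compared by edgeR 4.0.16 in R 4.3.3 (genes kept by filterByExpr, TMM, quasi-likelihood F-test, Benjamini-Hochberg over 13157 genes), which was tested on simulated data. The study used DESeq2, run here as an alternative (1.42.0), beside limma-voom (3.58.1), RLE, upper-quartile and unit normalization factors, a filter of at least 1 count, a replicate block, robust dispersion, removal of mitochondrial genes and leaving out each library. SE is the absolute log2 fold change over the square root of F, and 95% intervals follow from it. For ratios an exact permutation test (two-sided) over libraries was used. CPM per kb divides CPM by exonic length. Plots used Python 3.11.15 and matplotlib 3.10.9.

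The 9 genes and the gene lists (basement membrane, basal regulators, suprabasal, hair follicle, Merkel cell, T cell, Langerhans, fibroblast, muscle, melanocyte, endothelial, Schwann) were chosen with earlier results of these data known. Named from each list were its called genes (the 3 of smallest p where more were called) and the most abundant one, where a result of the 9 genes turned on it, and the 5 genes most like each mean profile (log2 CPM, prior count 2).

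Replicate numbers were not treated as pairs, since deviations of libraries with the same number correlated at only 0.0226, 0.00025 and -0.00436.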

Additional observations from a re-analysis of the deposited data

How the results depend on the processing

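None of the 9 genes was called under any of the 15 alternatives (adjusted p from 0.0768 to 0.999). With the replicate number as a block all genes gave 50 higher and 92 lower calls, against 137 and 204 without it, and Krt5 (-0.12), Krt14 (-0.05), Krt15 (-0.25) and Col17a1 (-0.39) turned below 0. DESeq2 called 661 and 928 genes, limma-voom 351 and 849, and a filter of at least 1 count 769 and 741. Krt5 (-0.08), Krt15 (-0.21) and Col17a1 (-0.33) were also below 0 with limma-voom, Krt15 (-0.00) and Col17a1 (-0.04) with library totals only and Col17a1 (-0.01) with upper-quartile factors. The cause was not tested. The other factors, robust dispersion and removal of mitochondrial genes turned none of the 9.

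Without a single library all genes gave 0 to 1099 higher and 13 to 733 lower calls. No higher call was left by edgeR without bulk skin replicate 1 or without replicate 2, although 2115 and 2237 genes had an unadjusted p below 0.05. The median of the 9 genes ran from -0.80 to 0.32, Krt5 from -0.81 to 0.56, Krt14 from -0.76 to 0.67, Krt15 from -0.80 to 0.50, Itgb4 from -0.81 to 0.32, Lamb3 from -1.23 to 0.28 and Col17a1 from -1.21 to 0.46, each lowest without NCAM-enriched library 3. The group difference ran from -0.22 to 0.04 for the log2 ratio Krt5:Krt14, from -0.47 to 0.22 for Itga6:Itgb4, from -0.04 to 1.20 for Lamb3:Lama3, from -1.22 to 0.02 for Itga6:Krt14, and from -0.548 to 0.453 percentage points for the basal keratin share. Lama3 in NCAM-enriched library 2 rests on 22 counts, the smallest count behind any value of the 9 genes.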
